A study of Mus musculus with 20 samples.

Results

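The endoplasmic reticulum (ER) folding and degradation machinery was described here across 20 mouse brains, 10 of *Winnie* and 10 of C57BL/6 mice. Its members were 40 named genes for ER chaperones, disulfide isomerases, lectin chaperones and prolyl isomerases, ER-associated degradation and the translocon, and 39 of them were found among the 17211 genes of the deposited table. The remaining name, *Selenos*, was not found under that symbol. Its gene is listed as *Vimp* (ENSMUSG00000075701), was not counted as a member, and had a log2 fold change of -0.06 (FDR, the false discovery rate, 0.672). The members were chosen from earlier results of the same genotype comparison, so all genotype differences given for them are descriptions and not independent tests.

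*Winnie* mice carry a missense mutation of *Muc2*, the gene of the main intestinal mucin, and develop spontaneous chronic colitis. C57BL/6 mice from the same breeding colony were the controls, and both genotypes were aged 14 weeks. RNA of 1 brain per mouse was sequenced, with 5 mice labelled female and 5 labelled male in each genotype, and no other treatment was labelled. The study's methods state fewer brains of each genotype than the labels list, and all labelled brains were used. Values were CPM, the reads of a gene scaled to a common library total over all listed genes. Totals ranged from 16540303 to 23923769 reads per brain, so that 1 read was worth at most 0.0605 CPM.

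Proteins that enter the ER are threaded through the translocon, bound by chaperones, glycosylated, joined by disulfide bonds and inspected by the lectins calnexin and calreticulin. Proteins that fail to fold are passed back to the cytosol and degraded. When unfolded protein accumulates, the sensors IRE1 (*Ern1*), PERK (*Eif2ak3*) and ATF6 raise the transcription of many of these genes, a programme known as the unfolded protein response. In the gut, misfolded mucin in goblet cells is known to engage this response. In the brain, neurons and glia that secrete or display many membrane proteins rely on the same machinery.

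The RNA of *Xist* and the Y-linked *Ddx3y* went against the labelled sex in 9 of 10 C57BL/6 brains and in 0 of 10 *Winnie* brains, and samples were kept in their labelled groups. Library numbers 1 to 10 were all C57BL/6 and 11 to 20 all *Winnie*, so library order and genotype cannot be told apart. Within each genotype the lower 5 numbers were all labelled female and the higher 5 all labelled male. Library order and labelled sex therefore cannot be told apart within a genotype. Because the tissue is bulk brain, fewer cells of a type and less RNA per cell cannot be told apart either. Markers of brain cells were plentiful, and the neuronal genes *Rbfox3*, *Snap25*, *Syt1* and *Tubb3* summed to 4076 to 4842 CPM in C57BL/6 and 4126 to 4674 CPM in *Winnie* brains. Plasma cells, which are rich in ER, were nearly absent, with their 3 listed markers summing to 1.32 to 2.80 CPM in C57BL/6 and 1.56 to 2.30 CPM in *Winnie* brains. Of 31 cell type markers, only the endothelial tight junction gene *Cldn5* was called, with a log2 fold change of -0.47 (FDR 0.00331). The summed level of the 4 endothelial markers overlapped between genotypes (102 to 148 against 102 to 134 CPM), but *Flt1* was its largest part (means 69.9 and 74.0 CPM). *Cdh5*, *Flt1* and *Pecam1* had log2 fold changes of 0.01, 0.09 and 0.09. The 4 choroid plexus markers had summed medians of 828 CPM in C57BL/6 and 746 CPM in *Winnie* brains, with ranges of 683 to 1018 and 468 to 954 CPM. Most of this sum was *Ttr* (means 803 and 698 CPM, log2 fold change -0.22, FDR 0.338). *Clic6*, *Folr1* and *Kcnj13* had log2 fold changes of -0.05, 0.01 and -0.08. The part of these marker levels in the differences below was not tested.

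Many ER chaperone genes share a short promoter sequence, the ER stress element, through which ATF6 and the factor XBP1 are known to act. Its parts, CCAAT and CCACG, are separated by 9 bases of any kind, and both strands were searched in 300 bases around each gene's start (250 before and 50 after, RefSeq, GRCm38.p6). Promoters were listed for 32 of the 39 members, and the element was present in 9 of them (28.1%). It was present in 0.162% of the 11714 genes of the table with a listed promoter and in 0.119% of all 32851 promoters. A second form, ATTGG and CCACG separated by 1 base, was found in *Dnajb11* and *Herpud1*, 2 of 32 members (6.25%), against 0.0683% of genes in the table. No member held both forms. The stretches below show these sites in members that differed between genotypes and in members that did not. The element is in capitals with 10 flanking bases on each side, each read on the gene's own strand. Only exact matches were searched, so the shared letters and spacing were fixed by the search, and near matches were not counted.

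Hspa5: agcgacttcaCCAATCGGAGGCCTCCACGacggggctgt
Hsp90b1: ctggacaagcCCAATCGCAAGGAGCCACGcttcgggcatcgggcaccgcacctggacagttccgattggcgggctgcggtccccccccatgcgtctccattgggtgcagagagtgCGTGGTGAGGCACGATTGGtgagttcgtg
Pdia6: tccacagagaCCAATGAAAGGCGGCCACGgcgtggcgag
Calr: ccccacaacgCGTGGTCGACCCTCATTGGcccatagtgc
Creld2: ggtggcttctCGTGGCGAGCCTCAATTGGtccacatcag
Dnajc3: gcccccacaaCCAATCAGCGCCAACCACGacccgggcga
Syvn1: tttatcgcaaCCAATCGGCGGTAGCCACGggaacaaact
Herpud1: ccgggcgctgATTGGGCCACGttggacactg

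These stretches lie at chr2:34772015-34772053 (plus strand) for *Hspa5*, chr10:86705523-86705666 (minus) for *Hsp90b1*, chr12:17266481-17266519 (plus) for *Pdia6* and chr8:84847065-84847103 (minus) for *Calr*. They lie at chr15:88819510-88819548 for *Creld2*, chr14:118937817-118937855 for *Dnajc3*, chr19:6046522-6046560 for *Syvn1* and chr8:94386367-94386397 for *Herpud1*, all on the plus strand. *Hsp90b1* held 2 elements, one in each orientation, and in *Calr* and *Creld2* the element ran in reverse, so that it reads CGTGG first. *Derl3* and *Canx* made up the rest of the 9. Counted by gene, one or other form was present in 4 of the 9 members called lower in *Winnie* brains that had a listed promoter, and in 7 of the 23 other members that had one. Among genes of the other lists with a listed promoter it was present in 2 of 74 other ER genes, 0 of 33 unfolded protein response genes and 0 of 43 heat shock genes. A match is a description of these letters and not evidence that a factor binds there.

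Several of the ER chaperones with high RNA levels were lower in *Winnie* mouse brains, whereas the median log2 fold change of the degradation genes was -0.02. A difference between roles was not tested. A gene was called when its FDR over all 17211 genes was below 0.05 in limma on log2(CPM + 0.5), the scale of all fold changes below. Of the 39 members, 11 were called lower, 0 higher and 28 were not called. Over all genes 1.01% were called lower and 1.52% higher, and since the members were chosen from this contrast nothing is read from the difference. At an unadjusted p below 0.05, 18 members were lower and 0 higher, beside 8.08% of all genes lower. On whole reads recovered from the CPM, edgeR called 12 members lower, 10 of them shared, and DESeq2 14 with all 11 shared, and both called 0 higher. The median log2 fold change of the members was -0.06 against 0.00 for all genes, and 30 of 39 members were below 0 against 49.0% of all genes. In limma, no member and no gene of the table passed the study's own threshold of an FDR below 0.001 with a change of 1.5-fold. The study applied that threshold with edgeR and states fewer brains, so this result is not like for like with its calls. Over the alternative fits described at the end, *Sdf2l1* had log2 fold changes of -0.77 to -0.64 and a lowest FDR of 0.000147. The fit with that lowest FDR therefore passed this threshold. Genes outside the members were not counted at this threshold in the alternative fits.

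The calls fell in 3 roles. They comprised 5 of 11 chaperones and cochaperones (*Sdf2l1*, *Hspa5*, *Manf*, *Hsp90b1* and *Hyou1*), 4 of 11 disulfide isomerases and oxidases (*Pdia4*, *Pdia6*, *Creld1* and *Pdia3*) and 2 of 5 lectin chaperones and prolyl isomerases (*Calr* and *Fkbp2*). *Creld1*, a membrane protein, was listed in the disulfide role with its isomerase-like paralog *Creld2*. Of the 10 degradation genes and the 2 translocon genes 0 were called by limma, edgeR or DESeq2, and 1 of each, *Derl3* and *Sec61b*, was lower at an unadjusted p below 0.05 in limma. Just inside the threshold were *Fkbp2* (FDR 0.0390), *Manf* (0.0406) and *Hyou1* (0.0412), and just outside it were *Creld2* (0.0526) and *Dnajb11* (0.0585).

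**Figure D1:**
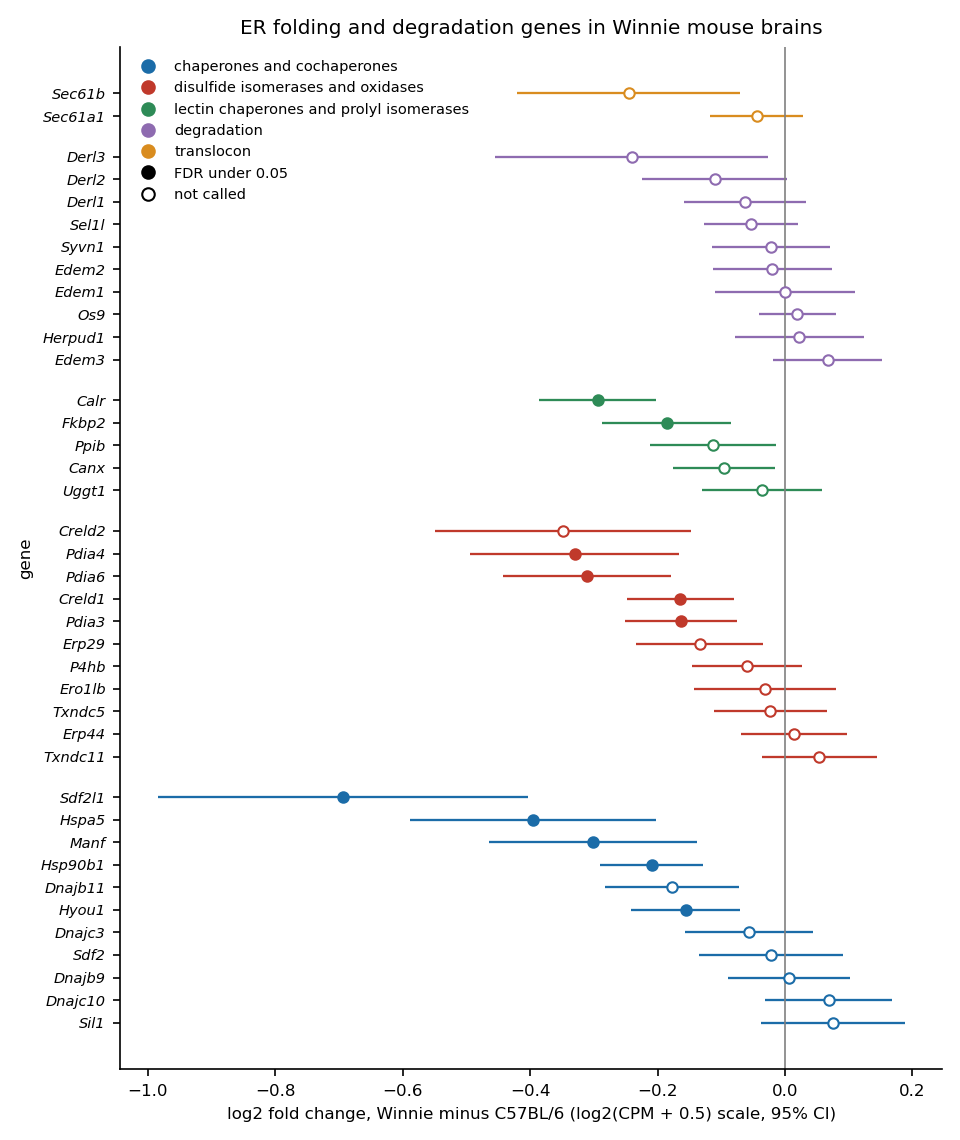
Log2 fold change of each of the 39 members (x axis, *Winnie* minus C57BL/6 on the log2(CPM + 0.5) scale, points with 95% confidence intervals, 10 brains per genotype), grouped and coloured by role, with filled points for an FDR below 0.05. The filled points lie between -0.69 (*Sdf2l1*) and -0.16 (*Hyou1*), and the degradation genes lie between -0.24 and 0.07 with open points.

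The count depended on single brains. Leaving out 1 brain at a time gave 4 to 12 members called lower and 0 called higher. The count was 4 without C57BL/6 brain 5 or *Winnie* brain 8, and 5 without C57BL/6 brain 3 or *Winnie* brain 7. It was 6 without *Winnie* brain 3 or 10, and 7 without C57BL/6 brain 8 or *Winnie* brain 2. *Calr*, *Hsp90b1*, *Pdia6* and *Sdf2l1* were called in all 20 of these fits. *Hspa5* lost its call without C57BL/6 brain 3 or 5 or *Winnie* brain 8 (highest FDR 0.0586), and *Pdia4* without these or *Winnie* brain 7 (0.0594). *Creld1* lost its call in 7 of the 20 fits, *Pdia3* in 12, *Fkbp2* in 13 and *Manf* and *Hyou1* in 15 each, with FDRs up to 0.0967.

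Calreticulin gave the clearest separation. *Calr* (ENSMUSG00000003814, chr8:84841850-84846934, GRCm38), the soluble lectin chaperone and main calcium buffer of the ER, measured 371, 394 and 489 CPM (lowest, median and highest) in C57BL/6 brains. In *Winnie* brains it measured 290, 329 and 362 CPM. All 10 *Winnie* brains were below the lowest C57BL/6 brain, and *Calr* was the only member whose groups did not overlap. It was also the only one of the 17211 genes with every *Winnie* brain below every C57BL/6 brain (0.00581% of genes). The means were 406 ± 36.2 and 331 ± 20.7 CPM (SD, n = 10 each), a log2 fold change of -0.29 ± 0.04 (SE; FDR 0.00108) or 18.4% less. Its membrane-bound partner calnexin (*Canx*), which carried the same element, spanned 345 to 385 CPM in C57BL/6 and 302 to 386 CPM in *Winnie* brains, with a log2 fold change of -0.10 and an FDR of 0.184. Per kilobase of exon *Calr* and *Canx* had the highest levels of the members in C57BL/6 brains, at 141 and 78.6 CPM per kb, followed by *Hsp90b1* at 77.9.

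*Hspa5* (ENSMUSG00000026864, chr2:34771970-34777547), which encodes BiP, the ER chaperone that also holds the stress sensors inactive, varied widely among the C57BL/6 brains. It measured 169, 219 and 271 CPM there and 137, 164 and 184 CPM in *Winnie* brains (lowest, median and highest). C57BL/6 brains 1, 3, 5 and 10 stood at 245 to 271 CPM and brains 2, 4, 8 and 9 at 169 to 181 CPM. These 4 lower C57BL/6 brains were within the *Winnie* range, and 6 of 10 *Winnie* brains were below the lowest of them. Means were 216 ± 39.4 and 162 ± 16.3 CPM (SD, n = 10 each), a log2 fold change of -0.40 ± 0.09 (SE; FDR 0.0292).

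*Hsp90b1* (ENSMUSG00000020048, chr10:86690209-86705509) encodes GRP94, the ER member of the HSP90 family, which folds integrins and Toll-like receptors. It measured 294, 316 and 331 CPM in C57BL/6 and 241, 272 and 320 CPM in *Winnie* brains. All *Winnie* brains but number 4, at 320 CPM, were below every C57BL/6 brain. The log2 fold change was -0.21 ± 0.04 (SE; FDR 0.00590) or 13.5% less.

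Other genes in this role act with BiP. *Sdf2l1* (ENSMUSG00000022769, chr16:17130138-17132383), a partner of the BiP cochaperones, had the largest fold change of all members at a low level of 49 to 187 reads per brain. It measured 4.41, 6.62 and 9.49 CPM in C57BL/6 and 2.62, 3.60 and 5.47 CPM in *Winnie* brains, with a log2 fold change of -0.69 ± 0.14 (SE; FDR 0.0112) or 38.2% less. *Winnie* brains 1 to 4 stood at 4.84 to 5.47 CPM, within the C57BL/6 range, and the other 6 were below it. Its paralog *Sdf2* spanned 21.1 to 28.4 CPM and 20.5 to 26.8 CPM, with a log2 fold change of -0.02 (FDR 0.887). The difference between the paralogs was not tested.

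*Manf* (ENSMUSG00000032575, chr9:106838312-106891979), a secreted neurotrophic factor that binds BiP, measured 33.5, 44.2 and 52.4 CPM in C57BL/6 and 31.0, 34.1 and 39.9 CPM in *Winnie* brains. The groups overlapped, with 5 *Winnie* brains below the lowest C57BL/6 brain, and the log2 fold change was -0.30 ± 0.08 (SE; FDR 0.0406). *Hyou1* (ENSMUSG00000032115, chr9:44379490-44392369), a large HSP70-like protein that renews the nucleotide on BiP, measured 103, 112 and 126 CPM and 91.5, 101 and 117 CPM, a log2 fold change of -0.16 ± 0.04 (SE; FDR 0.0412). *Dnajb11*, a J-domain cochaperone of BiP with the second form of the element, measured 37.6, 39.9 and 49.5 CPM and 32.3, 36.8 and 41.8 CPM, and was not called (-0.18, FDR 0.0585). The remaining chaperones spanned log2 fold changes of -0.06 (*Dnajc3*) to 0.07 (*Sil1*). *Dnajb9*, a J-domain protein that returns BiP to IRE1 and is a textbook target of the response, measured 48.9, 53.2 and 60.6 CPM in C57BL/6 and 47.3, 54.0 and 60.8 CPM in *Winnie* brains. Its log2 fold change was 0.01 with a 95% interval of -0.09 to 0.10.

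**Figure D2:**
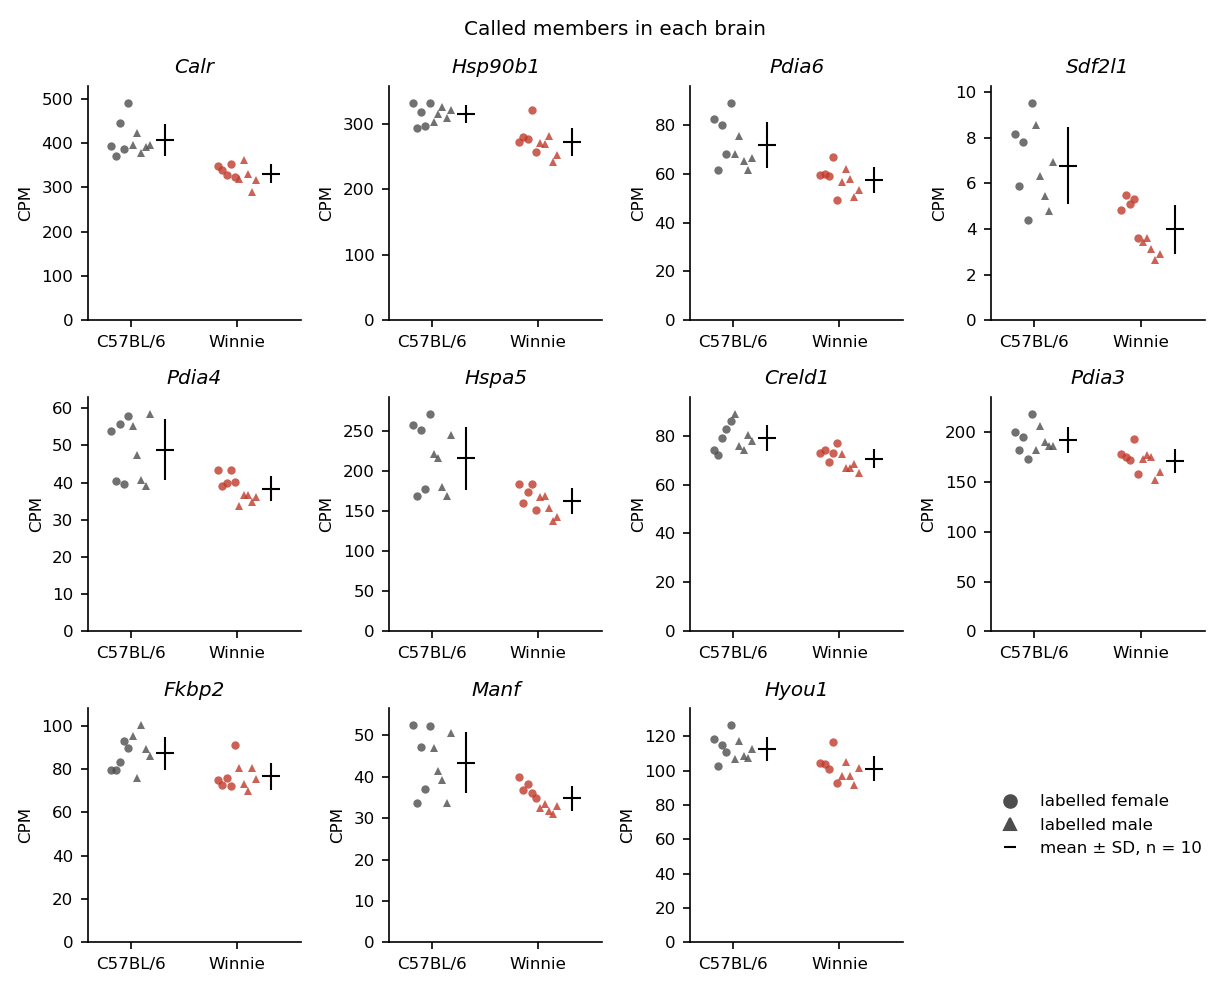
CPM (y axis, from 0) of the 11 called members in each brain, by genotype, with circles for labelled females, triangles for labelled males and the mean ± SD (n = 10) beside each group. *Calr* alone shows no overlap, whereas 4 C57BL/6 brains with low *Hspa5* (169 to 181 CPM) lie among the *Winnie* brains.

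Protein disulfide isomerases form, break and rearrange disulfide bonds in new proteins. *Pdia6* (ENSMUSG00000020571, chr12:17266545-17284770) measured 61.5, 68.0 and 88.7 CPM in C57BL/6 and 49.2, 58.5 and 66.9 CPM in *Winnie* brains, and 8 *Winnie* brains were below all C57BL/6 brains. Its log2 fold change was -0.31 ± 0.06 (SE; FDR 0.0112). *Pdia4* (ENSMUSG00000025823, chr6:47796141-47813430) measured 39.0, 50.6 and 58.3 CPM and 33.8, 37.8 and 43.3 CPM, a log2 fold change of -0.33 ± 0.08 (SE; FDR 0.0284). The C57BL/6 brains with low *Hspa5* were also low in *Pdia4*, at 39.0 to 40.6 CPM, which is within the *Winnie* range. *Pdia3* (ENSMUSG00000027248, chr2:121413775-121438687), the isomerase that works with calreticulin and calnexin, measured 173, 188 and 218 CPM and 151, 174 and 193 CPM, a log2 fold change of -0.16 ± 0.04 (SE; FDR 0.0374).

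*Creld2* and *Creld1* are paralogs with EGF-like repeats. *Creld2*, an isomerase-like stress target, had the largest change of this role but missed the threshold. It measured 7.39, 9.23 and 13.2 CPM in C57BL/6 and 5.73, 7.40 and 8.85 CPM in *Winnie* brains, a log2 fold change of -0.35 ± 0.10 (SE; FDR 0.0526). All 10 *Winnie* brains were below the C57BL/6 median, though 5 were within the C57BL/6 range. *Creld1* (ENSMUSG00000030284, chr6:113483297-113493343), a membrane protein, measured 72.2, 78.5 and 88.7 CPM and 64.7, 71.0 and 76.9 CPM, a smaller change with less spread (-0.16 ± 0.04 SE, FDR 0.0303). The other isomerases and oxidases spanned -0.13 (*Erp29*) to 0.05 (*Txndc11*) and were not called. They include *P4hb*, the archetypal isomerase, at -0.06 with a 95% interval of -0.15 to 0.03.

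Prolyl isomerases speed the turning of the peptide bond before proline. *Fkbp2* (ENSMUSG00000056629, chr19:6977741-6980501) measured 75.8, 87.7 and 100.2 CPM in C57BL/6 and 70.0, 75.3 and 91.0 CPM in *Winnie* brains, a log2 fold change of -0.19 ± 0.05 (SE; FDR 0.0390). *Ppib*, cyclophilin B, was not called (-0.11, FDR 0.206), nor was *Uggt1*, the glucosyltransferase that sends unfolded glycoproteins back to the lectins (-0.04, FDR 0.745).

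The degradation genes comprise the ubiquitin ligase *Syvn1* and its adaptor *Sel1l*, the derlins, the EDEM mannosidase family, the lectin *Os9* and *Herpud1*. *Herpud1*, a small membrane protein strongly induced by ER stress, measured 46.3, 51.5 and 58.9 CPM in C57BL/6 and 47.9, 53.0 and 56.97 CPM in *Winnie* brains. Its log2 fold change was 0.02 with a 95% interval of -0.08 to 0.12, and the genotypes shared nearly the whole range. *Syvn1*, with the element 44 bases before its start, measured 58.4, 65.8 and 76.6 CPM and 60.1, 64.1 and 72.8 CPM, a log2 fold change of -0.02 with an interval of -0.11 to 0.07. *Derl3* had the largest change of this role (-0.24 ± 0.10 SE, FDR 0.219) at only 12 to 32 reads per brain, so that its interval of -0.46 to -0.03 was wide. The other 7 lay between -0.11 (*Derl2*) and 0.07 (*Edem3*). Of the translocon genes, *Sec61b* measured 5.91, 6.49 and 8.02 CPM and 3.61, 5.86 and 6.78 CPM (-0.25 ± 0.09 SE, FDR 0.113), and *Sec61a1* differed by -0.04 (FDR 0.553).

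Reads of overlapping genes could enter some values, since the strand setting of the counting was not given in the sources used here. In the annotation, *Hsp90b1*, *Pdia3*, *Pdia6* and *Manf* overlap genes on the opposite strand, whereas *Calr*, *Hspa5*, *Sdf2l1*, *Creld1*, *Fkbp2* and *Hyou1* overlap none.

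Across brains, the called members were lower in every *Winnie* brain by their median, a direction fixed by their choice. The summed level of the 11 called members was 1412 to 1819 CPM in C57BL/6 and 1179 to 1463 CPM in *Winnie* brains. The highest *Winnie* sum, of brain 4, exceeded only the lowest C57BL/6 sum, of brain 2. In 8 *Winnie* brains all 11 were below their C57BL/6 mean, against 10 in brain 5 and 8 in brain 4. C57BL/6 brain 2 also had all 11 below the C57BL/6 mean, and brain 5 had 0. The 28 other members summed to 1674 to 1827 CPM and 1587 to 1825 CPM, ranges that shared most of their extent. They were set apart by not being called in this same comparison, so nothing is read from their contrast with the called members.

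**Figure D3:**
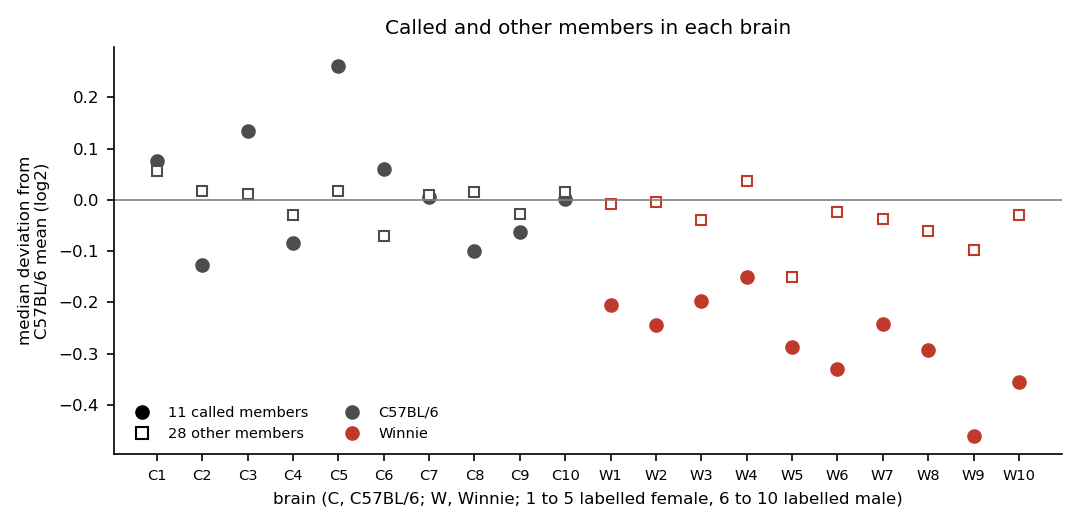
Median deviation of the 11 called members (filled circles) and of the 28 other members (open squares) from their C57BL/6 means, in log2 units (y axis), for each of the 20 brains (x axis). The filled circles reach from -0.13 to 0.26 in C57BL/6 and from -0.46 to -0.15 in *Winnie* brains, and the open squares from -0.07 to 0.06 and from -0.15 to 0.04. Both sets were defined by the genotype comparison itself.

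Whether these genes vary together was examined within each genotype, a measure that the choice of members did not use. Each of the other 38 members was correlated with *Hspa5* over the 10 brains of a genotype on the log2(CPM + 0.5) scale, giving 76 pairs with permutation p-values adjusted over all of them. In C57BL/6 brains 11 members had a positive Pearson r at an adjusted p below 0.05, and in *Winnie* brains 9, with 0 negative in either. The 6 members that passed in both genotypes were *Sdf2l1*, *Pdia6*, *Calr*, *Dnajb11*, *Dnajc3* and *Herpud1*. By Spearman's rho 6 members passed in C57BL/6 brains, 2 in *Winnie* brains and 0 in both. An r of at least 0.8 with *Hspa5* was reached by 8 of 38 members (21.1%) in C57BL/6 and 6 of 38 (15.8%) in *Winnie* brains, against 0.767% and 0.854% of the other 17210 genes. The points share a library and its depth, so these shares are descriptions. Both labelled sexes were pooled with no covariate. In *Winnie* brains, labelled females were above all labelled males for *Manf* (35.0 to 39.9 against 31.0 to 33.3 CPM) and *Pdia4* (39.1 to 43.3 against 33.8 to 36.6 CPM). *Sdf2l1*, one of the 6 that passed in both genotypes, was split in the same way (3.61 to 5.47 against 2.62 to 3.60 CPM). *Hspa5* overlapped in the *Winnie* brains (151 to 184 against 137 to 169 CPM). The part of labelled sex or library order in these correlations was not tested.

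*Manf* followed *Hspa5* most closely in C57BL/6 brains (r = 0.97, rho = 0.96, adjusted permutation p = 0.00304 and 0.00532, n = 10), and r was 0.95 without the 2 brains farthest from the *Hspa5* median. In *Winnie* brains its r was 0.72 (rho = 0.73), which did not pass (adjusted permutation p = 0.0714 and 0.0851, n = 10), and r was 0.59 without the 2 farthest. *Pdia4* gave an r of 0.96 in C57BL/6 (rho = 0.84, adjusted permutation p = 0.0137 and 0.0425) and 0.65 in *Winnie* brains (rho = 0.64, adjusted permutation p = 0.129 and 0.146).

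*Herpud1* covaried with *Hspa5* within each genotype although its level did not separate them. Its r was 0.85 in C57BL/6 brains (rho = 0.73, adjusted permutation p = 0.0355 and 0.0851, n = 10) and 0.83 in *Winnie* brains (rho = 0.88, adjusted permutation p = 0.0292 and 0.0408, n = 10). Without the 2 farthest brains r was 0.77 and 0.87. *Dnajb11* gave r of 0.84 and 0.82 (rho 0.82 and 0.78), *Pdia6* 0.85 and 0.81 (rho 0.85 and 0.77), *Sdf2l1* 0.88 and 0.80 (rho 0.84 and 0.68) and *Calr* 0.71 and 0.78 (rho 0.78 and 0.76). Without the 2 farthest brains the r of these 4 genes was 0.83, 0.75, 0.89 and 0.66 in C57BL/6 and 0.86, 0.71, 0.60 and 0.53 in *Winnie* brains, so the *Winnie* values of *Sdf2l1* and *Calr* rested in part on those brains. *Dnajc3* gave 0.80 and 0.81 (rho 0.65 and 0.68), and without the 2 farthest brains its *Winnie* r was 0.50. Adjusted permutation p-values of r for these 5 genes were 0.0184 to 0.0470 in C57BL/6 and 0.0292 to 0.0356 in *Winnie* brains, and those of rho 0.0425 to 0.140 and 0.0574 to 0.121.

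Some members did not covary positively with *Hspa5* in either genotype after adjustment. *Fkbp2*, called lower in *Winnie* brains, had r of -0.25 and -0.34 with *Hspa5*, and *Creld1* 0.27 and 0.36. *Dnajb9* stood at -0.07 and -0.09, *Os9* at -0.63 and -0.45 and *Edem2* at -0.67 and -0.63, and 0 of these passed after adjustment within a genotype. Over all 20 brains with genotype means subtracted, *Edem2* (r = -0.60, rho = -0.51) and *Os9* (r = -0.51, rho = -0.49) passed as negative by r (adjusted permutation p = 0.0126 and 0.0483) and not by rho (0.0665 each). *Sdf2* passed in *Winnie* brains only, with an r of 0.83 (rho = 0.83, adjusted permutation p = 0.0292 and 0.0459, n = 10) that was 0.68 without the 2 farthest brains. In C57BL/6 brains its r was -0.46 (rho = -0.32, adjusted permutation p = 0.3196 and 0.568, n = 10), and the difference between genotypes was not tested.

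**Figure D4:**
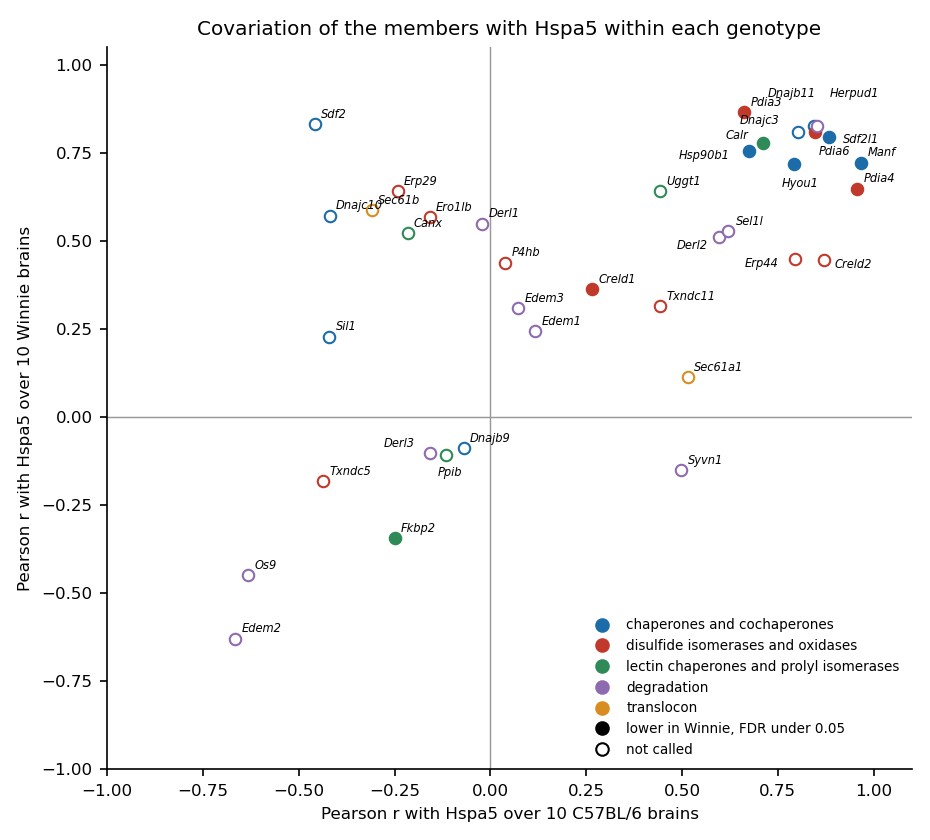
Pearson r of each of 38 members with *Hspa5* over the 10 C57BL/6 brains (x axis) and the 10 *Winnie* brains (y axis), coloured by role and filled when the gene was called lower in *Winnie* brains. *Manf*, *Pdia4*, *Pdia6*, *Sdf2l1*, *Dnajb11*, *Dnajc3* and *Herpud1* lie at the upper right, *Fkbp2*, *Os9* and *Edem2* at the lower left.

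By labelled sex, the comparison has 5 brains per group and rests on labels that the RNA went against in 9 C57BL/6 brains. By that RNA, each comparison set *Winnie* brains of the labelled sex against C57BL/6 brains mostly of the other sex. Genotype and sex therefore cannot be told apart in either comparison, nor in the difference between them. Both comparisons came from a single fit of all 20 brains with a shared estimate of the spread. Leaving out a brain of either labelled sex could therefore change either count. *Calr* was the only member called in labelled females (-0.29 ± 0.06 SE, FDR 0.0436), beside 0.134% of all genes called lower. In labelled males 3 members were called, *Sdf2l1* (-0.91 ± 0.16 SE, FDR 0.0113), *Hsp90b1* (-0.26 ± 0.06 SE, FDR 0.0341) and *Calr* (-0.29 ± 0.06 SE, FDR 0.0342), beside 0.128% of all genes. The count in labelled females was 0 without C57BL/6 brain 3, 5, 8 or 9 or *Winnie* brain 2, 3, 5, 6, 8 or 10, and 2 without C57BL/6 brain 2 or *Winnie* brain 4. In labelled males it was 1 without C57BL/6 brain 7, 8 or 9 or *Winnie* brain 6 or 9. *Sdf2l1* differed by -0.48 ± 0.16 (SE) in labelled females (FDR 0.172), and *Hspa5* by -0.37 and -0.42 in labelled females and males with FDRs of 0.211 and 0.209. The genotype difference itself differed between labelled sexes for 0 of 39 members in limma and in edgeR, beside 0.0697% of all genes, and for 1 member at an unadjusted p below 0.05 in limma. That member was *Ppib*, which was named after its values were seen, with -0.22 in labelled females and -0.01 in labelled males (interaction FDR 0.756).

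**Figure D5:**
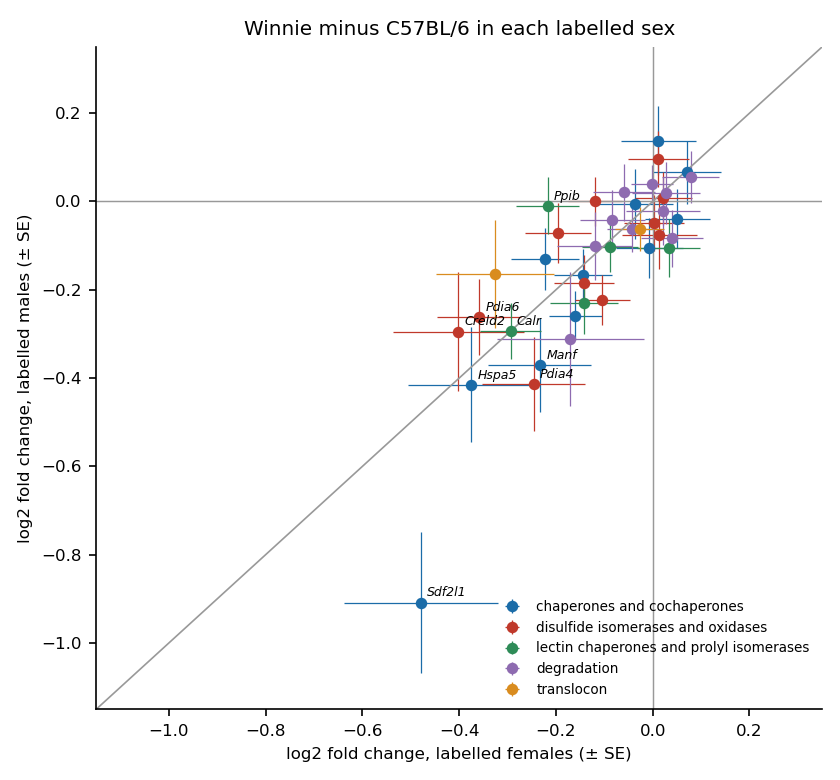
Log2 fold change, *Winnie* minus C57BL/6, of the 39 members in labelled females (x axis) and labelled males (y axis), with the line of equality. Each group had 5 brains, and the SE bars use the spread shared by all 20 brains in a single fit. *Sdf2l1* lies farthest from 0 in both (-0.48 and -0.91), and *Calr* lies on the line at -0.29.

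The regulators of this machinery were examined as the remaining genes of the pathway. Of 37 unfolded protein response genes 0 were called, with 4 higher and 6 lower at an unadjusted p below 0.05 in limma, and edgeR called 0 and DESeq2 1 lower. Without C57BL/6 brain 2 or 8, limma called 1 lower. *Xbp1*, whose spliced form drives many of the members, measured 82.8 ± 14.5 CPM in C57BL/6 and 68.2 ± 5.77 CPM in *Winnie* brains (SD, n = 10 each; -0.26, FDR 0.0961). *Ern1*, the nuclease that splices it, measured 13.4 ± 1.64 and 15.5 ± 0.890 CPM (0.21, FDR 0.0541). *Atf4* differed by -0.12 (FDR 0.148), *Ddit3* by -0.15 (FDR 0.228), *Atf6* by 0.09 (FDR 0.331) and *Eif2ak3* by 0.01 (FDR 0.925). Gene counts cannot tell spliced from unspliced *Xbp1*.

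Of 100 other ER genes, 2 were called lower and 0 higher (15 and 5 at an unadjusted p below 0.05), with a median log2 fold change of -0.03. They were the collagen chaperone *Serpinh1* (-0.34, FDR 0.0214) and the oxidoreductase subunit *Magt1* of the oligosaccharyltransferase (-0.19, FDR 0.0463). The count was 0 without C57BL/6 brain 5 and 1 without C57BL/6 brain 1, 3 or 8 or without *Winnie* brain 1, 2, 3, 5, 7, 8, 9 or 10. Of 50 cytosolic and mitochondrial heat shock genes, 10 were called lower and 0 higher (23 and 2 at an unadjusted p below 0.05), with a median log2 fold change of -0.09, beside the 1.01% of all genes called lower. The count was 6 without C57BL/6 brain 5 or 8 or *Winnie* brain 2 or 9. The called genes were *Dnaja4*, *Ptges3*, *Cryab*, *Dnaja1*, *Ahsa1*, *Dnajb2*, *Stip1*, *Hsph1*, *Fkbp4* and *Hspe1*, which serve HSP70, HSP90 or the mitochondrial chaperonin or, for *Cryab*, hold unfolded protein, and their log2 fold changes lay between -0.37 and -0.16. This list too was chosen with earlier results known.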

How the data were processed

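RNA was sequenced from 20 brains as paired reads on an MGI platform. The authors processed the reads with the RNAsik pipeline on GRCm38, counted reads per gene with featureCounts and deposited CPM scaled to library size with Degust. The aligner settings, strand setting and any filter on low counts were not given in the sources used here. limma is also named in the submitters' processing notes. Groups were taken from the sample labels, 10 per genotype and 5 per genotype and labelled sex.

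From the deposited CPM, limma 3.58.1 (R 4.3.3, trend and robust) was fitted to log2(CPM + 0.5) of all 17211 genes, with no filter and Benjamini-Hochberg FDR. The study's methods name edgeR, which needs counts. All values (100%) came out as whole reads within 0.0011 CPM, and edgeR 4.0.16 (514 genes called) and DESeq2 1.42.0 (977 genes called) were run on these reads as alternatives, beside 434 genes by limma. DESeq2 gave 1 member no FDR, which was left as missing. Correlations used permutation tests with 100000 resamples, two-sided (scipy 1.17.1). The fits and the permutation test were tested on simulated data.

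The members and all gene lists were chosen with earlier results of these data known. Genes named are the called members, the member of each role with the largest change, the stress targets *Hspa5*, *Hsp90b1*, *Calr*, *Sdf2l1*, *Manf*, *Creld2*, *Dnajb9*, *Herpud1* and *Syvn1*, the paralog pairs, the called genes of the other lists and *Xbp1*, *Atf4*, *Atf6*, *Ern1*, *Eif2ak3* and *Ddit3*. Other genes are named with a value where they mark the end of a range, a contrast or a marker, and were chosen after their values were seen. The lists found 100 of 105 other ER genes, all 37 unfolded protein response genes, all 50 heat shock genes and 31 of 32 markers. Gene positions and exon lengths are from GENCODE M21 (GRCm38), promoters from RefSeq. Protein sequences were not used here.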

Additional observations from a re-analysis of the deposited data

Results flagged for a closer look

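Among 78 groups of 10 brains (39 members in 2 genotypes), 5 had a highest brain set apart from the others by a gap that was large for the range of the group. Chance alone sets apart about 1 in 20 such groups. *Hsp90b1* stood at 320 CPM in *Winnie* brain 4 (next 281) and *Sel1l* at 259 CPM in the same brain (next 237). *Fkbp2* stood at 91.0 CPM in *Winnie* brain 5 (next 80.5) and *Sec61a1* at 63.1 CPM in the same brain (next 57.8). *Edem2* stood at 21.0 CPM in C57BL/6 brain 9 (next 19.2).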

How the results depend on the processing

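The 11 members called lower became 8 to 14 under other pseudocounts, scalings, covariates, a filter on low values, the replicate block, edgeR, DESeq2 and an FDR of 0.1, and 18 at an unadjusted p below 0.05, with 0 higher in each. Without 1 brain the count was 4 to 12. *Fkbp2* lost its call with median-ratio scaling (FDR 0.0602), edgeR (0.0634) and the block, and *Creld2* and *Dnajb11* gained one in 7 of 12 alternatives each. Other ER genes lower, 2 in the reported fit, numbered 4 with median-ratio scaling, 6 with quantile normalization, 4 with edgeR, 8 with DESeq2, 15 at an unadjusted p below 0.05, 6 at an FDR below 0.1 and 0 to 3 without 1 brain. Unfolded protein response genes lower, 0 in the reported fit, numbered 1 with DESeq2, 6 at an unadjusted p, 1 at an FDR below 0.1 and 0 to 1 without 1 brain. Heat shock genes lower, 10 in the reported fit, numbered 17 with DESeq2, 23 at an unadjusted p and 6 to 11 without 1 brain. In labelled females the member called was lost (0) with median-ratio scaling and when each labelled sex was fitted on its own samples, and 0 to 2 were called without 1 brain, and in labelled males 1 to 3. With all 20 brains after subtracting genotype means, 15 members in place of 6 covaried positively with *Hspa5* and 2 negatively (*Edem2* and *Os9*) in place of 0, a test of 20 points in place of 2 tests of 10. Log2 fold changes near 0 changed sign without 1 brain, between -0.013 and 0.027 for *Dnajb9*, -0.042 and 0.0016 for *Syvn1* and -0.044 and 0.0026 for *Sdf2*. The cause of these changes was not tested. Sample numbers shared by the genotypes did not pair them: deviations of the 10 same-numbered pairs correlated at -0.293 to 0.151, and 1 pair correlated best with its own number. The replicate block gave 8 members lower (*Pdia3*, *Fkbp2* and *Hyou1* lost), 5 heat shock genes and 1 other ER gene. Leaving out the 9 C57BL/6 brains whose RNA went against the labelled sex would leave 1 and was not run. *Derl3*, *Sdf2l1*, *Sec61b* and *Creld2* had the fewest reads (12 to 317 per brain), which limits their precision.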
